A study of Mus musculus with 20 samples.

Results

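The insulin-like growth factor (IGF) binding protein genes of the mouse liver are the 7 genes Igfbp1 to Igfbp7. They were taken by their symbols from a table of RNA-seq read counts, where they are 7 of 25444 loci, each with 1 locus. Livers came from 20 mice at 20 weeks of age, all without any treatment or engineered allele named in the labels. There were 5 females and 5 males of C57BL/6N (B6) and 5 females and 5 males of C3H/HeN (C3), both inbred strains from a commercial breeder. The left lateral lobe was taken in the morning from mice that were caged singly. Each sex had its own room, and the effects of sex and of room cannot be told apart. The libraries were sequenced in 3 pools, with each group spread over all of them.

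IGF binding proteins are secreted proteins that hold IGF1 and IGF2 in the blood and tissues, lengthen their life and limit or aid their access to the IGF1 receptor. The liver is the main source of circulating IGF1. Most of that IGF1 travels in a ternary complex with IGFBP3 or IGFBP5 and the acid-labile subunit, the product of Igfals. IGFBP1 is a hepatocyte protein whose gene is known to be repressed by insulin and switched on by fasting, glucocorticoids and cell stress. IGFBP2 is a second hepatocyte product that responds slowly to nutrition and growth hormone. IGFBP4 mostly inhibits IGF action, IGFBP6 prefers IGF2, and IGFBP7 binds IGFs weakly and is made by endothelial and stromal cells.

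The 7 transcripts ranged from highly abundant to barely detected. Levels are compared between genes as TPM, the abundance of transcripts after division by gene length and depth. Igfbp4 led with 868 ± 93.8 TPM (SD over 20 livers) and ranked 132 among the 25444 loci. Igfbp2 followed with 468 ± 153 TPM at rank 281, and Igfbp7 with 122 ± 21.9 TPM at rank 1010. Igfbp1 averaged 29.5 ± 23.3 TPM, Igfbp3 18.1 ± 4.68 TPM, Igfbp5 3.66 ± 1.66 TPM and Igfbp6 1.23 ± 0.429 TPM. The order Igfbp4, Igfbp2, Igfbp7, then Igfbp1 or Igfbp3, then Igfbp5 and Igfbp6 was seen in all 4 groups. Igfbp1 and Igfbp3 did not separate beyond their spread in B6 females, B6 males or C3 males, and separated in C3 females, where the lowest Igfbp1 value was 27.9 TPM and the highest Igfbp3 value 24.9 TPM. The ranges of Igfbp4 and Igfbp2 overlapped in C3 males, from 776 to 981 TPM and from 450 to 817 TPM, although Igfbp4 was the higher of the pair in each of these 5 livers. In B6 males the ranges of Igfbp1 and Igfbp5 overlapped as well.

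Together the 7 transcripts summed to 1629 ± 106 TPM in B6 females, 1230 ± 84.0 TPM in B6 males, 1554 ± 90.9 TPM in C3 females and 1629 ± 183 TPM in C3 males (SD, n = 5 livers each). Igfbp4 held 54.5% to 64.2% of that sum in the group means and Igfbp2 24.2% to 36.6%. The share of Igfbp2 was lowest in B6 males, at 24.2% ± 4.66, and highest in C3 males, at 36.6% ± 5.55.

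**Figure D1:**
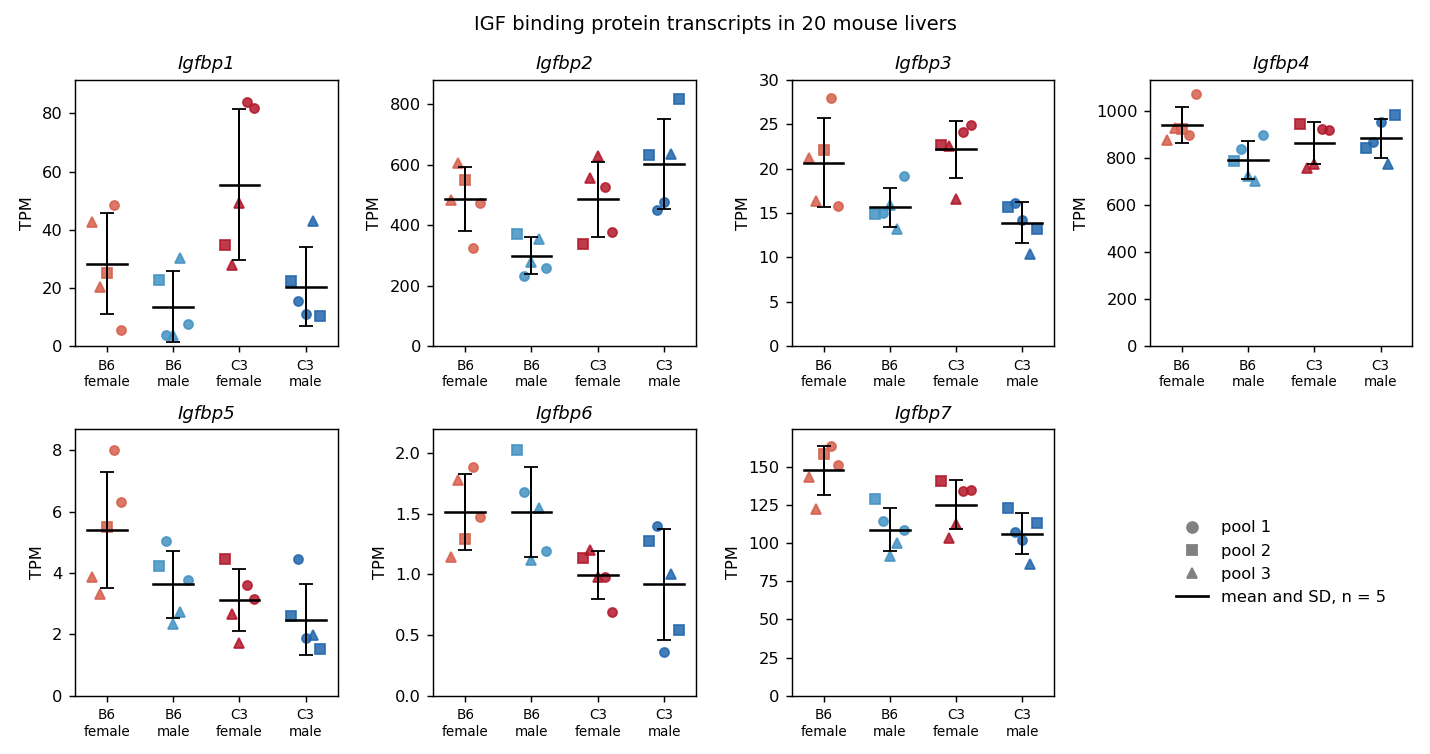
TPM (linear axis from 0) of each IGF binding protein gene in each of the 20 livers by strain and sex, with marker shape for the sequencing pool and bars for the mean and SD of 5 livers. Igfbp2 is lowest in B6 males, at 230 to 370 TPM, and highest in C3 males, at 450 to 817 TPM, while the 20 Igfbp1 values run from 3.65 to 84.0 TPM.

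Libraries held 27370921 to 46835745 counts, at which 3 counts, taken as the floor of detection, correspond to 0.0641 to 0.110 CPM, counts scaled to the library total without regard to gene length. Each member was above that floor in each library, and the rarest, Igfbp6, rested on 8 to 50 counts per library. All 7 passed the filter on low counts and are among the 13704 genes tested. Hepatocyte markers dominated the libraries, with 77652 to 173587 TPM summed over 5 genes found of 6 listed. Those of sinusoidal endothelial cells summed to 264 to 442 TPM, of stellate cells and fibroblasts to 194 to 399 TPM, of Kupffer cells and macrophages to 164 to 537 TPM, of cholangiocytes to 21.4 to 52.3 TPM, of mesothelial cells to 1.59 to 4.75 TPM and of lymphocytes to 0.494 to 4.99 TPM. In the erythroid list Hba-a1, Hbb-b1 and Hbb-bt had 0 counts in all 20 libraries, and only Alas2 had counts. Multimapping reads were not counted, and whether transcripts of these 3 globin genes were absent was not tested. In whole tissue, fewer cells of a type and less RNA per cell cannot be told apart.

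Differences between groups were tested with edgeR's quasi-likelihood test on counts, with the pool as a covariate, and the Benjamini-Hochberg adjustment covered all 13704 genes. Calls required an adjusted p under 0.001 together with a log2 fold change beyond 0.5 in either direction. Between females and males, 0 of the 7 members were called in B6, where 6.34% of all genes tested were called (3.23% higher in females and 3.12% higher in males), and 0 in C3, against 6.90% (4.11% and 2.79%). With DESeq2 the count was 0 in B6, where it called 1144 of 15156 genes, and 1 in C3, where it called 1378 of 16224. At an unadjusted p under 0.05 in edgeR there were 4 members in each strain, a threshold that at least 34.6% of all genes passed in B6 and 40.0% in C3. Between C3 and B6, 0 of 7 were called in females, against 9.40% of all genes (4.63% with more in C3 and 4.77% with more in B6). There DESeq2 called 0 of 7 members and 1583 of 16580 genes. An unadjusted p under 0.05 in edgeR was reached by 2 members and by at least 32.9% of all genes. In males 1 of 7, Igfbp2, was called, and it was higher in C3, against 9.64% of all genes (4.09% with more in C3 and 5.55% with more in B6). For the difference between the sex effects of the strains, the sex-by-strain interaction, 0 of 7 were called by edgeR, against 0.401% of all genes. Called genes with the female against male fold change higher in C3 were 0.270% of all genes, and those with it lower in C3 0.131%. Here DESeq2 called 1 of 7 members and 181 of 14088 genes. An unadjusted p under 0.05 in edgeR was reached by 2 members and by at least 2.96% of all genes.

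At an adjusted p under 0.05 with no minimum fold change, the edgeR counts were 2 of 7 in B6 and 2 of 7 in C3 between the sexes, where 34.6% and 40.0% of all genes passed. Between the strains they were 2 of 7 in females and 3 of 7 in males, where 32.9% and 34.5% of all genes passed, and for the interaction 1 of 7, where 2.96% did. Over the 7 members the median log2 fold change between females and males was 0.33 in B6 and 0.20 in C3, beside 0.0018 and 0.015 over all genes tested. For C3 against B6 it was -0.056 in females and -0.048 in males, beside 0.019 and 0.015. These comparisons share livers pairwise, and their values are given side by side only.

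**Figure D2:**
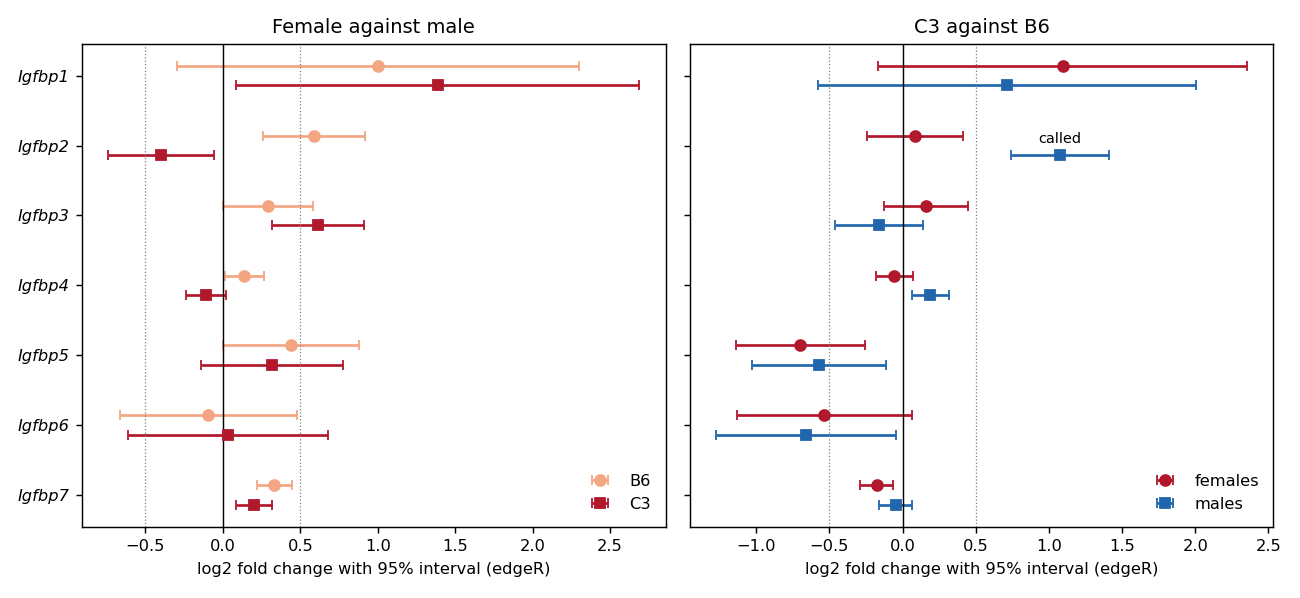
log2 fold change with its 95% interval from edgeR for each member, females against males on the left (B6 in circles, C3 in squares) and C3 against B6 on the right (females in circles, males in squares). Dotted lines mark the minimum log2 fold change of 0.5 in either direction, and Igfbp2 in C3 against B6 males, at 1.08, is the 1 value called.

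Igfbp2, the second most abundant of the binding protein transcripts, was higher in C3 than in B6 males. It lies on chromosome 1 (mm9, chr1:72871054-72899045, plus strand, gene ID 16008). In B6 males its TPM was 370, 230, 278, 354 and 257, and in C3 males 632, 450, 476, 635 and 817. All 5 C3 males lay above all 5 B6 males, a separation that 15.5% of all genes tested showed in this comparison. The log2 fold change was 1.08 (SE 0.16), 2.11-fold, with an adjusted p of 3.8e-05 in edgeR. Within the pools the difference of mean log2 CPM was 0.98, 1.02 and 1.11. Without any 1 mouse the adjusted p ran from 7.3e-05 to 0.00019, and under the other settings it ran from 2.5e-10 to 0.0004.

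In females a strain difference of Igfbp2 was not detected. Its TPM was 481, 606, 548, 324 and 473 in B6 females and 336, 555, 630, 527 and 376 in C3 females. The ranges overlapped almost wholly, and the log2 fold change of C3 against B6 was 0.09 (SE 0.16, 95% interval -0.24 to 0.42, adjusted p 0.71 in edgeR). Against males of their own strain, B6 females were higher by a log2 fold change of 0.59 (SE 0.16, adjusted p 0.0075 in edgeR), and 1 B6 female, at 324 TPM, lay among the B6 males. C3 females had a log2 fold change of -0.40 (SE 0.16, adjusted p 0.057 in edgeR) against C3 males, in the other direction. Without 1 mouse that value ran from -0.55 without replicate 4 to -0.19 without replicate 1 of the C3 females, with adjusted p of 0.011 and 0.26, and under the other settings the adjusted p ran from 0.028 to 0.13. The interaction, C3 sex difference minus B6 sex difference, was -0.99 on the log2 scale (SE 0.23) with an adjusted p of 0.020 in edgeR and 0.00055 in DESeq2. It was -0.70, -1.70 and -0.91 within the pools, where pool 2 held a single liver in 3 of the 4 groups. Without 1 mouse its adjusted p in edgeR ran from 0.0048 to 0.050, the last without replicate 2 of the B6 females, and it was 0.11 without the pool.

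The region just before the first Igfbp2 start is shown because Igfbp2 carried the strain difference. RefSeq lists 2 starts for the gene. The 250 bases before the first one, chr1:72870804-72871053 in mm9 on the plus strand, hold 67.2% G and C and 14 CpG dinucleotides, and 3 copies of the GC box letters GGGCGG, printed in capitals. That motif, searched on both strands, is present in 32.7% of 32851 RefSeq promoter windows of the same length.
Igfbp2: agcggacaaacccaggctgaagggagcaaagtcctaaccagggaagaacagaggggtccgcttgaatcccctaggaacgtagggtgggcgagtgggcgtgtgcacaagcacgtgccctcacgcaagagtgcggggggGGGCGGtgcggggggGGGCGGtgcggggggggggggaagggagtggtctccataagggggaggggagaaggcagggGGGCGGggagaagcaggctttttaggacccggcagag
The window also holds the E-box letters CACGTG once, 142 to 137 bases before the start, as do 6.02% of all windows, and it overlaps none of the GC box letters. The sequence is the reference one, and C3 alleles were not read here.

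Igfbp3, the main carrier of circulating IGF1, was higher in females than in males of C3 at an adjusted p under 0.05. It lies on chromosome 11 (mm9, chr11:7106096-7113926, minus strand, gene ID 16009). Its TPM was 22.6, 22.5, 16.6, 24.1 and 24.9 in C3 females and 15.7, 16.1, 14.2, 10.3 and 13.2 in C3 males. All C3 females lay above all C3 males, as for 13.4% of all genes tested in that comparison. The log2 fold change was 0.61 (SE 0.14), 1.53-fold, with an adjusted p of 0.0028 in edgeR, so Igfbp3 was not called. With DESeq2 the adjusted p was 0.00037, with limma on log2(TPM + 1) 0.00062 and with edgeR on the C3 livers alone 0.00095, and each of these made the call. Within the pools the difference was 0.61, 0.54 and 0.74 on the log2 scale.

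In B6, Igfbp3 had 21.2, 16.3, 22.1, 28.0 and 15.8 TPM in females and 14.9, 15.0, 15.9, 13.1 and 19.2 TPM in males. The groups overlapped, and the log2 fold change was 0.29 (SE 0.14, adjusted p 0.11 in edgeR). The 2 sex differences were not shown to differ, with an interaction of 0.32 (SE 0.20, adjusted p 0.45 in edgeR). Between strains the log2 fold change was 0.16 in females and -0.16 in males, with an adjusted p of 0.40 in each by edgeR.

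The partners of IGFBP3 in the ternary complex were measured beside it. Igf1 had 235, 192, 171, 265 and 236 TPM in B6 females, 121, 181, 121, 135 and 176 TPM in B6 males, 250, 229, 221, 269 and 317 TPM in C3 females and 217, 192, 198, 189 and 186 TPM in C3 males. B6 males were the lowest group, and all 5 C3 males lay above all 5 B6 males. Igf1 was called higher in C3 than in B6 males (log2 fold change 0.51, SE 0.10, adjusted p 7e-04 in edgeR). Its other differences were 0.48 for females against males in B6 (adjusted p 0.0012), 0.26 in C3 (0.046) and 0.29 for C3 against B6 in females (0.028), in the same edgeR fit.

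Igfals, encoding the acid-labile subunit, had 240, 197, 96.8, 101 and 111 TPM in B6 females and 66.9, 52.2, 103, 104 and 59.1 TPM in B6 males. In C3 it had 193, 224, 204, 127 and 109 TPM in females and 134, 78.9, 87.1, 185 and 127 TPM in males. B6 males again formed the lowest group. They overlapped B6 females and C3 males and lay below all 5 C3 females. In every group the livers of pool 3 had the highest values. Within each pool the B6 males lay below the B6 females and the C3 males. Igfals was called in 2 comparisons, higher in B6 females than in B6 males (0.81, SE 0.12, adjusted p 3.8e-05 in edgeR) and higher in C3 than in B6 males (0.84, SE 0.12, adjusted p 2e-05 in edgeR). Of 2 genes tested in the list of ligands and ternary complex, 2 were thus called higher in C3 males. Igf2, a fetal growth factor, had 0 to 16 counts per library and did not pass the filter.

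**Figure D3:**
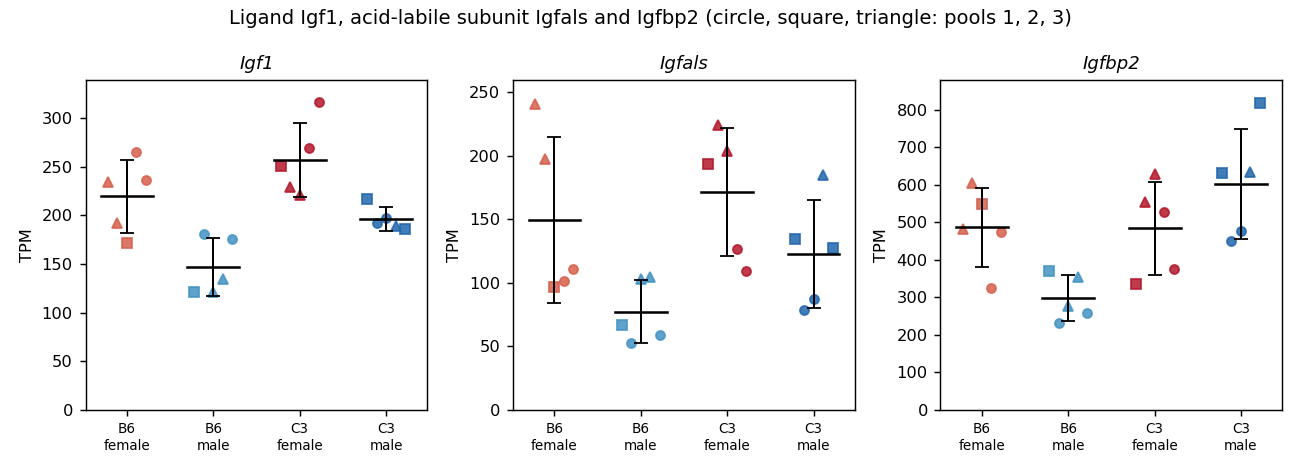
TPM (linear axis from 0) of Igf1, Igfals and Igfbp2 in each liver by strain and sex, with bars for the mean and SD of 5 livers and marker shape for the pool. B6 males have the lowest group mean in all 3 panels, and C3 males the highest only for Igfbp2.

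Igfbp4, the most abundant member, varied least over the 20 livers, with the highest 1.53-fold above the lowest. It lies on chromosome 11 (mm9, chr11:98902574-98913957, plus strand, gene ID 16010). Its means were 939 ± 76.1 TPM in B6 females, 789 ± 80.7 TPM in B6 males, 863 ± 90.4 TPM in C3 females and 883 ± 83.6 TPM in C3 males (SD, n = 5). The ranges of the 4 groups overlapped. C3 against B6 males had a log2 fold change of 0.19 (SE 0.06, adjusted p 0.022 in edgeR). The adjusted p was 0.052 to 0.081 without replicate 1, 2 or 4 of the B6 males or replicate 3, 4 or 5 of the C3 males, and 0.14 without the pool. Females against males had 0.14 in B6 and -0.11 in C3, with adjusted p of 0.086 and 0.16 in edgeR. Between livers of a group, with the pool in the fit, its biological coefficient of variation in edgeR was 0.0790. That value was higher than the coefficient of 23.7% of the genes tested.

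Igfbp1, the insulin-repressed binding protein gene, was the least stable member. It lies on chromosome 11 (mm9, chr11:7097790-7102549, plus strand, gene ID 16006). Its TPM was 42.7, 20.2, 25.1, 48.5 and 5.44 in B6 females, 22.6, 3.65, 3.86, 30.2 and 7.65 in B6 males, 34.8, 27.9, 49.4, 84.0 and 81.8 in C3 females and 22.5, 15.5, 10.9, 43.0 and 10.2 in C3 males. The highest and lowest livers differed 23.0-fold, and within B6 females 8.92-fold. C3 females were the highest group and overlapped each other group. The coefficient of variation in edgeR was 0.642, higher than that of 99.7% of the genes tested.

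None of the 4 group differences of Igfbp1 had an adjusted p under 0.05. Between females and males its log2 fold change was 1.00 in B6 (95% interval -0.29 to 2.30, adjusted p 0.22) and 1.39 in C3 (0.085 to 2.69, adjusted p 0.083). Those of C3 against B6 were 1.09 in females (-0.16 to 2.35, adjusted p 0.18) and 0.71 in males (SE 0.62, adjusted p 0.39), all by edgeR. The adjusted p of the C3 sex difference was 0.046 without replicate 2 of the C3 females and 0.043 without replicate 4 of the C3 males. The strain difference in males ran from 0.17 without replicate 4 of the C3 males to 1.21 without replicate 4 of the B6 males.

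To compare livers within groups, log2 CPM values were taken as residuals after removing group and pool means, and correlated over the 20 livers. P-values came from permutations of livers within groups, which moved livers between pools although pool means had been removed. These p-values are therefore approximate. Over the 7 members and the genes of 7 lists of related pathways, 329 relations were computed, and 3 had an adjusted p under 0.05. The first joined Igfbp1 to Irs2, which encodes an insulin receptor substrate and is itself known to be repressed by insulin. Pearson's r was 0.80 and Spearman's rho 0.80, with permutation p of 1e-05, the smallest that 100000 permutations can give, and 3e-05, and adjusted p of 0.0033 and 0.0066. Without the 2 livers farthest from the median of the first gene r was 0.72. The r of Irs2 with the other members was 0.69 for Igfbp6, 0.68 for Igfbp5 and 0.59 for Igfbp7. It was 0.30 for Igfbp3, -0.14 for Igfbp2 and -0.67 for Igfbp4. In that order the adjusted permutation p was 0.24, 0.17, 0.097, 0.59, 0.82 and 0.14.

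Irs2 itself had 12.8, 10.6, 8.45, 12.4 and 6.98 TPM in B6 females and 4.93, 4.15, 3.35, 6.46 and 4.02 TPM in B6 males. In C3 it had 9.14, 12.9, 11.9, 12.0 and 12.4 TPM in females and 8.47, 9.12, 4.76, 11.2 and 3.72 TPM in males. In B6 and C3 males the liver with most Igfbp1 was also the one with most Irs2, and in B6 females the one with least Igfbp1 had least Irs2. In B6 females different livers were highest for the 2 genes, and in C3 females the liver with least Igfbp1, at 27.9 TPM, had the most Irs2, at 12.9 TPM. With other genes under insulin control, Igfbp1 had lower correlations. Its r was -0.06 with Pck1 and 0.35 with G6pc, which encode enzymes of glucose production, with adjusted permutation p of 0.97 and 0.59. The suppressor of cytokine signalling gene Socs3 had r = -0.77 with Igfbp1, at an adjusted permutation p of 0.061.

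The windows before the Igfbp1 and Irs2 starts are shown because these 2 genes varied together. Each is 250 bases long and printed in the direction of transcription, from RefSeq, at chr11:7097540-7097789 on the plus strand for Igfbp1 and chr8:11008930-11009179 on the minus strand for Irs2 (mm9). Capitals mark CAAAACA, the core letters of the insulin response element at which FOXO factors are known to bind, or its reverse complement TGTTTTG.
Igfbp1: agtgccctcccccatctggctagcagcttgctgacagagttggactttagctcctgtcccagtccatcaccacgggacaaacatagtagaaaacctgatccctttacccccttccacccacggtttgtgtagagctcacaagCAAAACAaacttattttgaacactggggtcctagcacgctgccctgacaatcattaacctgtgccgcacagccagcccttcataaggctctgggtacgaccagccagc
Irs2: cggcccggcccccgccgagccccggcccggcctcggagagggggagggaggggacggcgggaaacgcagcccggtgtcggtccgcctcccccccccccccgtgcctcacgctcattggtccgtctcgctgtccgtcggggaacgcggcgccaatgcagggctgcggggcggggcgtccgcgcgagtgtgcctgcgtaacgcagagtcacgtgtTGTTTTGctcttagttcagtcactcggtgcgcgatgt
In Igfbp1 the letters lie 108 to 102 bases before the start and in Irs2 37 to 31 bases before it. They are present on either strand in 5.56% of the 32851 windows, and in no window of the other 6 members. The Igfbp1 window has 53.2% G and C with 5 CpG and the Irs2 window 72.8% with 34 CpG, beside medians of 52.4% and 6 over all windows. The other forkhead letters GTAAACA and the STAT5 letters TTCNNNGAA were found in none of the members' windows, against 3.17% and 7.02% of all windows. A match of letters describes the sequence only.

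Igfbp5 and Igfbp6, both rare in liver, had lower means in C3 than in B6, and the Igfbp5 difference had an adjusted p under 0.05 in both sexes. Igfbp5, whose product can also form the ternary complex, lies on chromosome 1 (mm9, chr1:72904639-72921439, minus strand, gene ID 16011). Its TPM was 3.86, 3.31, 5.49, 8.01 and 6.32 in B6 females and 4.46, 2.66, 1.73, 3.61 and 3.17 in C3 females. In males it was 4.24, 5.06, 2.35, 2.73 and 3.77 in B6 and 2.58, 4.45, 1.87, 1.99 and 1.51 in C3. The strains overlapped in each sex. The log2 fold change of C3 against B6 was -0.70 in females (SE 0.21, adjusted p 0.016 in edgeR) and -0.57 in males (SE 0.22, adjusted p 0.049 in edgeR). Without 1 mouse the adjusted p in females ran from 0.0077 to 0.050, the last without replicate 5 of the C3 females. In males it was 0.060 to 0.13 without replicate 1, 2, 3 or 4 of the B6 males or replicate 1, 3 or 5 of the C3 males. Without the pool it was 0.13 in females and 0.34 in males.

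Igfbp6, the IGF2-preferring member, lies on chromosome 15 (mm9, chr15:101974617-101979943, plus strand, gene ID 16012). It had 23 to 50 counts per library in B6 females, 25 to 40 in B6 males, 14 to 32 in C3 females and 8 to 32 in C3 males. These correspond to 1.51 ± 0.315, 1.51 ± 0.370, 0.995 ± 0.197 and 0.917 ± 0.454 TPM (SD, n = 5). The groups overlapped. C3 against B6 gave a log2 fold change of -0.53 in females (SE 0.28, adjusted p 0.16 in edgeR) and -0.66 in males (SE 0.29, adjusted p 0.089 in edgeR). In males the adjusted p was 0.036 with limma on log2(TPM + 1), and 0.024 in edgeR without replicate 2 of the C3 males.

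Within groups these 2 genes varied together. The residuals of Igfbp5 and Igfbp6 had r = 0.81 and rho = 0.79, with permutation p of 0.0015 and 9e-04 and adjusted p of 0.027 and 0.015 over the 21 pairs of members, and r was 0.71 without the 2 farthest livers. The remaining 2 of the 3 relations to pathway genes were theirs. Both followed Arntl, which encodes the clock activator BMAL1. For Igfbp5 r was 0.84 and rho 0.86 (permutation p 0.00013, adjusted p 0.014), and for Igfbp6 r was 0.83 and rho 0.90 (permutation p 5e-05, adjusted p 0.0082). Without the 2 farthest livers r was 0.77 and 0.79. With Npas2, a partner of BMAL1, r was 0.68 for Igfbp5 and 0.72 for Igfbp6, and with Tef, a clock output gene, -0.70 and -0.71, at adjusted permutation p of 0.098, 0.067, 0.14 and 0.10. With Clock r was 0.0016 for Igfbp5 and 0.0038 for Igfbp6. Over all 12 clock genes the median r was -0.26 for Igfbp5 and -0.19 for Igfbp6. Igfbp4 had the opposite sign, with r of -0.70 with Npas2 and -0.66 with Arntl, at adjusted permutation p of 0.067 and 0.12. Livers were collected over several hours of the morning. The hour of each liver is not given in the sources used here, and its part in these relations was not tested. Neither the Igfbp5 nor the Igfbp6 window before the start holds the E-box letters CACGTG, which are present in 6.02% of all windows. Most windows thus lack these letters, and control of the 2 genes by BMAL1 was not tested.

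**Figure D4:**
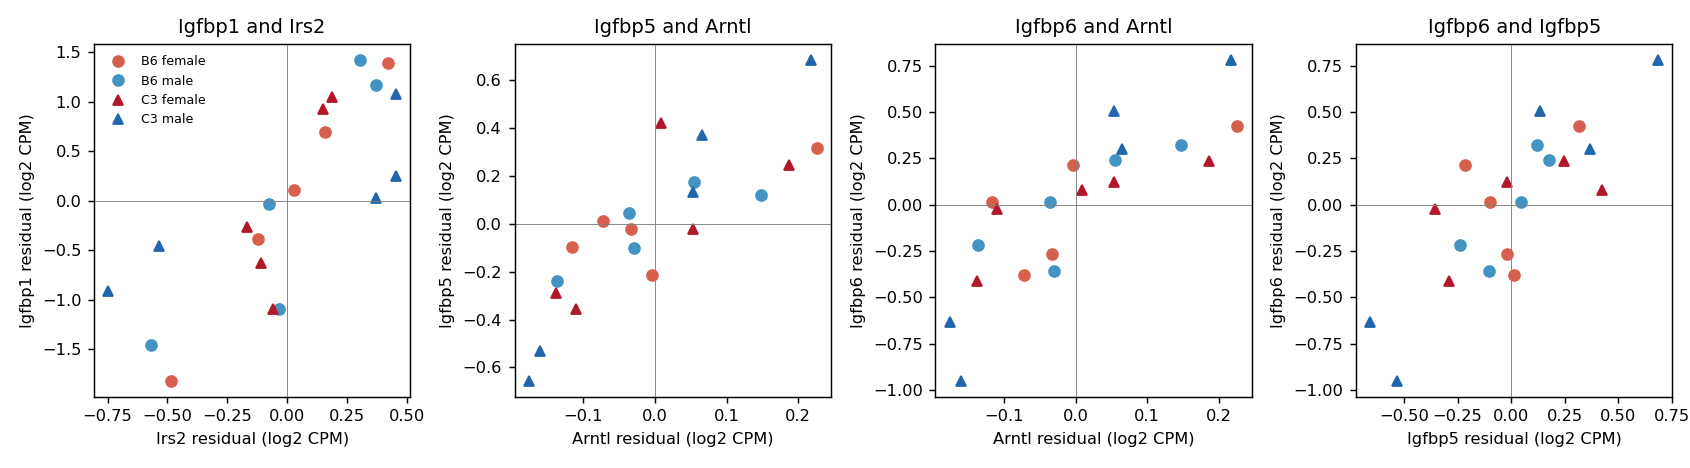
Residual log2 CPM of 20 livers after removal of group and pool means, for Igfbp1 against Irs2, Igfbp5 and Igfbp6 each against Arntl, and Igfbp6 against Igfbp5, with 1 point per liver coloured by group. All 4 clouds rise from lower left to upper right, with r of 0.80, 0.84, 0.83 and 0.81.

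Igfbp7 was higher in females of both strains at an adjusted p under 0.05. It lies on chromosome 5 (mm9, chr5:77778265-77837070, minus strand, gene ID 29817). Its TPM was 143, 123, 159, 164 and 151 in B6 females and 129, 115, 91.7, 99.8 and 109 in B6 males. In C3 it was 141, 103, 112, 134 and 135 in females and 123, 107, 102, 86.5 and 113 in males. In each of the 4 groups the livers of pool 3 had the lowest values, and the sexes overlapped in TPM. Within the pools the sex difference was 0.37, 0.22 and 0.34 on the log2 scale in B6 and 0.28, 0.14 and 0.16 in C3.

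With the pool in the fit, the sex difference of Igfbp7 on the log2 scale was 0.33 in B6 (SE 0.05, adjusted p 0.00014 in edgeR) and 0.20 in C3 (SE 0.06, adjusted p 0.0081 in edgeR). Both were under the minimum of 0.5, and the B6 value passed the p threshold. Without the pool the adjusted p was 0.093 in B6 and 0.56 in C3. C3 against B6 had -0.18 in females (SE 0.05, adjusted p 0.017 in edgeR) and -0.05 in males (SE 0.06, adjusted p 0.53 in edgeR). Without 1 mouse the adjusted p in females was 0.061 and 0.053 without replicates 1 and 4 of the B6 females and 0.050 without replicate 2 of the C3 females, and it was 0.44 without the pool. Its coefficient of variation in edgeR, with group and pool in the fit, was 0.0693, the lowest of the 7. Within groups, without removal of the pool, the SD of its CPM was 10.8% to 12.6% of the mean. For Igfbp4 this was 7.49% to 10.2%.

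Summed marker levels of liver cell types are set beside the sex differences of Igfbp7 and Igfbp3. The 9 sinusoidal endothelial markers summed to 374 to 442 TPM in B6 females and 282 to 321 TPM in B6 males, and to 332 to 381 TPM in C3 females and 264 to 304 TPM in C3 males. Their median sex difference, females minus males on the log2 scale, was 0.33 in B6 and 0.25 in C3, with 0 of 9 called in either strain. The 9 stellate cell and fibroblast markers summed to 316 to 399 TPM in B6 females and 244 to 290 TPM in B6 males, and to 256 to 301 TPM and 194 to 236 TPM in C3, with medians of 0.30 and 0.31 and 0 of 9 called. The 7 Kupffer cell and macrophage markers summed to 392 to 537 TPM in B6 females and 233 to 372 TPM in B6 males, and to 262 to 397 TPM and 164 to 246 TPM in C3. They had medians of 0.49 and 0.40, with 1 of 7 called in each strain, Vsig4. These counts stand beside 6.34% and 6.90% of all genes called. In these 3 lists the sums were higher in females without overlap in both strains. So were those of the hepatocyte list, at 104850 to 135667 TPM in B6 females and 77652 to 103954 TPM in B6 males. In C3 they were 144787 to 173587 TPM in females and 107705 to 134432 TPM in males. The median sex difference of the 5 hepatocyte markers went the other way, at -0.031 in B6 and -0.24 in C3, with 0 of 5 called. By limma on log2(TPM + 1), the median of females against males over all genes was 0.085 in B6 and 0.087 in C3. The erythroid sum, which is Alas2 alone, was lower in females without overlap, at 22.6 to 35.2 TPM against 154 to 192 TPM in B6 and 17.4 to 28.7 TPM against 194 to 223 TPM in C3. Cholangiocyte and lymphocyte sums overlapped between the sexes in B6 and were higher in females without overlap in C3, and mesothelial sums overlapped in both strains. Within groups, the residuals of Igfbp7 had a median r of 0.0066 with the sinusoidal endothelial list and 0.45 with the stellate cell and fibroblast list. It was 0.29 with the Kupffer cell and macrophage list and 0.53 with the hepatocyte list. The part of all these lists in the sex differences of Igfbp7 and Igfbp3 was not tested.

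Between strains the same lists are set beside Igfbp5 and Igfbp6. In C3 against B6 females, where 9.40% of all genes were called, 4 of 7 Kupffer cell and macrophage markers were called lower, 1 of 9 sinusoidal endothelial markers was called lower, and 1 of 9 stellate cell and fibroblast markers was called higher. In males, where 9.64% of all genes were called, the counts were 3 of 7, all lower, 0 of 9 and 0 of 9. The median log2 fold change of the stellate cell and fibroblast list was -0.34 in females and -0.21 in males. Mesothelial markers, with 0 of 5 called in either sex, had medians of 0.12 and -0.33. Within groups, the residuals of Igfbp5 and Igfbp6 had a median r of 0.48 and 0.42 with the mesothelial list. The values were 0.34 and 0.17 with the stellate cell and fibroblast list and 0.035 and 0.27 with the Kupffer cell and macrophage list. With the sinusoidal endothelial list they were -0.20 and 0.039. The part of these cells in the Igfbp5 and Igfbp6 values was not tested.

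Among the 21 pairs of members, 2 had an adjusted permutation p under 0.05. Beside Igfbp5 with Igfbp6, these were Igfbp1 with Igfbp7 (r = 0.67, rho = 0.70, permutation p 0.0025 and 0.0015, adjusted p 0.027 and 0.015, and r = 0.66 without the 2 farthest livers). The number of pairs was 0 without replicate 4 of the B6 females, replicate 2 of the C3 females, replicate 2 of the C3 males or replicate 5 of the C3 males, 1 without replicate 1 or 4 of the B6 males or replicate 4 of the C3 males, and 4 without replicate 1 of the C3 females. Among the members, 2 pairs are neighbours in the genome. Igfbp1 and Igfbp3 lie 3546 bases apart on chromosome 11 and Igfbp2 and Igfbp5 5593 bases apart on chromosome 1, each pair with its 3′ ends facing. Their residuals had r = 0.31 and r = -0.50, with adjusted permutation p of 0.43 and 0.14.

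Receptor genes of the pathway were not called. Insr, the insulin receptor gene, averaged 31.8 to 44.5 TPM by group, Igf2r, which clears IGF2, 22.6 to 24.3 TPM and Igf1r, the IGF1 receptor gene, 0.556 to 0.741 TPM. Of the 3 receptor genes tested, 0 were called in any of the 5 comparisons, where 0.401% to 9.64% of all genes were called. Insrr had at most 1 count in a library. Of the proteases that cut binding proteins and their inhibitors, 5 of 8 were tested, and Prss23 was called lower in C3 in females (-0.95, SE 0.19, adjusted p 0.00093 in edgeR) and males (-1.06, SE 0.20, adjusted p 0.00037 in edgeR). Pappa, encoding the protease that cuts IGFBP4, had 1 to 23 counts per library. Of secreted proteins with an IGF binding protein domain or name, 6 of 9 were tested, and Wisp1 was called lower in C3 females (-0.92, SE 0.16, adjusted p 0.00017 in edgeR). Igfbpl1 had 0 counts in all libraries.

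Of 12 clock genes, Nr1d2, a clock repressor, was called higher in B6 females than in B6 males (0.82, SE 0.16, adjusted p 6e-04 in edgeR). Of 8 genes of growth hormone signalling, 0 were called in any comparison, where 0.401% to 9.64% of all genes were called. Their median log2 fold change for C3 against B6 was 0.54 in males and -0.017 in females, beside 0.015 and 0.019 over all genes. Between females and males that median was 0.32 in B6 and -0.13 in C3, beside 0.0018 and 0.015. For the interaction it was -0.50, beside 0.0067. The part of growth hormone signalling in the values of the members was not tested. In females against males in C3, and in the interaction, 0 genes of these 7 pathway lists were called, beside 6.90% and 0.401% of all genes.

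The genes whose residuals most resembled each member among the 13704 tested are given as a description over 20 livers, chosen for their likeness. For Igfbp1 these were Tgif1 (r = 0.94), 8430408G22Rik (0.89) and Zfand5 (0.88). For Igfbp2 they were Slc12a9, Rbpms2 and Dsg1c (0.83, 0.83 and 0.81), for Igfbp3 Ndufa4, Bccip and M6pr (0.81, 0.80 and 0.80) and for Igfbp4 Atg4d, Cyth2 and Brd1 (0.85, 0.82 and 0.82). Arntl was among the 3 most alike for both Igfbp5, with Obsl1 (0.85) and Ptk6 (0.85), and Igfbp6, with Traf3ip2 (0.82) and Igfbp5 (0.81). Igfbp7 had Gm8883, Sri and Nkiras2 (0.83, 0.82 and 0.82).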

How the data were processed

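Liver RNA of 20 mice was sequenced as strand-specific total RNA with ribosomal RNA removed. The deposited counts are whole, unscaled numbers of sequenced fragments for each RefSeq gene of mm9, without multimapping reads. The submitters' processing notes name cutadapt 1.9.1, STAR 2.5.1b and featureCounts of Subread 1.5.0-p1. The authors also deposited TPM values, whose gene length definition is not given in the sources used here. The symbol and identifier headers are exchanged in the tables and were read by content. Groups and pools came from the sample labels. The members and gene lists were chosen with earlier results of these data known.

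Counts were fitted in R 4.3.3 with edgeR 4.0.16 (filterByExpr, TMM, quasi-likelihood test, group and pool over 20 libraries), with P-values adjusted by the Benjamini-Hochberg method. The fit was tested on simulated data. Residual log2 CPM used a prior count of 2, and correlations used 100000 two-sided permutations within groups. Named genes were the 7 members, the ligand complex, the receptors, called genes of the pathway lists, except a result of the insulin and FOXO list that is not reported here, and the 3 genes most like each member. Irs2, Arntl, Pck1, G6pc, Socs3, Npas2, Tef, Clock, Pappa and Igfbpl1, also of these lists, were named after their values were seen. DESeq2 1.42.0, limma 3.58.1 on log2(TPM + 1) and log2(TPM + 0.1), RLE scaling, no filter, no pool, a replicate block, a looser threshold, only the groups compared and leaving out each mouse were alternatives. RefSeq promoter sequences of GRCm38.p6 were placed by exact match in mm9. The floor of 3 counts covers counting error only, since PCR copies are not independent molecules.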

Additional observations from a re-analysis of the deposited data

Results flagged for a closer look

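A few results stood out among the members. In C3 females the lowest Igfbp3 value, 19.4 CPM in replicate 3, was isolated from the nearest liver at 26.0 CPM. In B6 females the highest Igfbp4 value, 1041 CPM in replicate 5, was isolated from the nearest at 912 CPM. These were 2 of 28 groups of 5 livers examined. Chance alone flags about 1 group in 20. The sex difference of Igfbp2 had opposite signs in B6 (0.59, adjusted p 0.0075) and C3 (-0.40, adjusted p 0.057, and -0.55 to -0.19 without 1 mouse), and the interaction of -0.99 on the log2 scale had an adjusted p of 0.020 in edgeR.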

How the results depend on the processing

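Igfbp2 in C3 against B6 males was called under each alternative and without any 1 mouse. The count of 0 members called became 1 for females against males in C3 under DESeq2, both limma fits and the fit of only the groups compared (Igfbp3), and 1 for the interaction under DESeq2 (Igfbp2). At an adjusted p under 0.05 the counts were 2, 2, 2, 3 and 1 for sex in B6, sex in C3, strain in females, strain in males and the interaction. The number of correlated member pairs was 4 without the pool, 1 on log2(TPM + 1) and 0 to 4 without 1 mouse. The directions that reversed belonged to log2 fold changes that were not called. For Igfbp6 they were sex in B6 (0.0044 and 0.0097 by limma, -0.21 to 0.021 without 1 mouse, 0.0052 among them), sex in C3 (-0.019 with only the groups compared, -0.18 to 0.29 without 1 mouse, -0.11 and -0.049 among them) and the interaction (-0.076 to 0.38 without 1 mouse, -0.022 and -0.018 among them). Others were Igfbp4 for sex in C3 (0.0014 by limma with either pseudocount), Igfbp2 for strain in females (-0.016 by limma with either pseudocount, -0.057 to 0.26 without 1 mouse), Igfbp7 for strain in males (0.035 without the pool), Igfbp1 in the interaction (-0.15 to 0.94 without 1 mouse, -0.099 among them) and Igfbp5 in the interaction (-0.29 to 0.11 without 1 mouse). The cause was not tested.

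Livers with the same number in different groups had mean residual correlations of 0.10, -0.013, 0.064 and 0.010 after removal of group and pool. Single pairs ran from -0.20 to 0.32. Livers with different numbers were not compared, so these values cannot settle whether the numbers pair livers. The replicate block gave Igfbp1 for sex in C3 an adjusted p of 0.021 and Igfbp6 for strain in males one of 0.029 in edgeR. It left the member counts at 0, 0, 0, 1 and 0, and the counts over all genes were 845, 933, 1222, 1263 and 40, against 869, 945, 1288, 1321 and 55. Without the pool those were 421, 482, 815, 881 and 20. With only the groups compared they were 592, 625, 876 and 1102. DESeq2 called 181 genes in the interaction, and without 1 mouse edgeR called 32 to 55. With limma on log2(TPM + 0.1) the median log2 fold change of females against males over all genes was 0.11 in B6 and 0.12 in C3, and 709 of 990 and 876 of 1132 calls were higher in females, against 442 of 869 and 563 of 945. Depth limits Igfbp6 most, at 8 to 50 counts per library.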
